A study of Mus musculus with 6 samples.

Results

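The Th2 programme genes are the lineage factor, cytokine, receptor and regulator genes of type 2 helper T (Th2) cells, read here in T cells cultured towards another fate, the interleukin-17-producing Th17 cell. The members are the 7 genes Gata3, Il4, Il5, Il13, Il1rl1, Ptgdr2 and Nfil3, taken by gene symbol from the 16244 genes of the RNA-seq table. The table held 3 WT and 3 RORγt N275D (N275D) Th17 libraries. RORγt is the transcription factor that directs Th17 differentiation, and N275D mice carry a knock-in substitution in it on the C57BL/6 background. Naive CD4+ T cells from the spleens of mice 6 to 12 weeks old were activated in culture for 3 days with antibodies to CD3 and CD28. All 6 cultures received IL-6, IL-1β and IL-23, the pathogenic Th17 mixture. The series' design text names these 3 cytokines alone, whereas the study's methods add IL-23 and IL-1β to a Th17 mixture that already holds TGF-β and antibodies that block IL-4 and IFN-γ, so whether IL-4 was blocked in these libraries is not settled by the sources used here. The labels give a genotype and a number for each library and do not say that the libraries came from separate mice or cultures, so the p-values measure the spread between these libraries, which may be technical. Whether the donors carried 1 or both mutated alleles is not given in the labels, and totals of reads per gene cannot show the substitution itself.

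Th2 differentiation is driven by IL-4, which signals through STAT6 and raises GATA3, and GATA3 in turn opens the cytokine locus where Il4, Il13 and Il5 lie together. Th2 cells respond to the alarmin IL-33 through ST2, the product of Il1rl1, and to prostaglandin D2 through CRTH2, the product of Ptgdr2, and they orchestrate immunity to helminths and allergic inflammation. NFIL3 is a basic leucine zipper repressor that takes part in the regulation of Th2 cytokines. GATA3 is needed by T cells of every helper lineage at low levels, so its RNA alone does not mark a Th2 cell.

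The sequences in front of the cytokine genes are shown because these neighbours are usually expressed together in Th2 cells but were found here at very different levels. They are given as the 250 bases before a start site (RefSeq, GRCm38.p6), 5′ to 3′ on the gene's own strand, with matches to the GATA motif (AGATAA or AGATAG, and the same words starting with T) or to the ROR core AGGTCA on either strand in capitals. The windows shown for Il1rl1 and Nfil3 stand before starts inside the gene spans given below, not before the outer end of the gene.
Il13, chr11:53634703-53634952, minus strand: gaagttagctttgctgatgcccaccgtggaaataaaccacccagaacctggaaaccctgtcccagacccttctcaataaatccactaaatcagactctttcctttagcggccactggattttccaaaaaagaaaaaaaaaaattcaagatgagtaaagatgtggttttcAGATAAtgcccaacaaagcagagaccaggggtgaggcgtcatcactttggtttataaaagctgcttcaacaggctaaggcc
Il5, chr11:53720544-53720793, plus strand: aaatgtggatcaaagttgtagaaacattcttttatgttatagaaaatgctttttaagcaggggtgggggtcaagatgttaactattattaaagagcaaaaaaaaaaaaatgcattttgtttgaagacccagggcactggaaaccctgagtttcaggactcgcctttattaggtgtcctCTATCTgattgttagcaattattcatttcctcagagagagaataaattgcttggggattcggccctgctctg
Il4, at its outermost start, chr11:53618666-53618915, minus strand: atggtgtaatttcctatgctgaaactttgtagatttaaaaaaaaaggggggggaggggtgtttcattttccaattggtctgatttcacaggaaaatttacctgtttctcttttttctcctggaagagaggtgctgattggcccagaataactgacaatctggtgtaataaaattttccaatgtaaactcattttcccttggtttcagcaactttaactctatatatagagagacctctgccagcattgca
Il1rl1, at the upstream start of the 2 in RefSeq windows, chr1:40429320-40429569, plus strand: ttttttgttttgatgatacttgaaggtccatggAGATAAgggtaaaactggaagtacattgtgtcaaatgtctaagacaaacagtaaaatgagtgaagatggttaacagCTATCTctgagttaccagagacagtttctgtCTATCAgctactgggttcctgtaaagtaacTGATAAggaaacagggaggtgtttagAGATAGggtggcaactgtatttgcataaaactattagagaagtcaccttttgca
Nfil3, chr13:52981040-52981289, minus strand: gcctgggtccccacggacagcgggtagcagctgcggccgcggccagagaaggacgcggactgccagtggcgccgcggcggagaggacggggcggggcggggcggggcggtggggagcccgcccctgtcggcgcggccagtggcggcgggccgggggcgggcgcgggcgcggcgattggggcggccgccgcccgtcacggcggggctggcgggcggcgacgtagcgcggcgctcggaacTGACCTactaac

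All 7 members had such a window, 9 windows in all, out of 32851. A GATA motif stood 81 bases before the Il13 start and 72 bases before the Il5 start. The outermost Il4 start had none in its window, and a second Il4 start inside the gene had 1, at 80 bases before it. The upstream Il1rl1 window held 5 and the other Il1rl1 window 1, and those of Gata3, Nfil3 and Ptgdr2 held none. The windows of these 3 genes and both Il1rl1 windows lie inside the gene spans given below, so the sequence before their outer ends was not read. Of all windows, 26.5% held at least 1 GATA motif, so a match is common. The ROR core stood 12 bases before the Nfil3 start and 185 bases before the second Il1rl1 start, and 14.0% of all windows held it. The core of a hypoxia response element (ACGTG or GCGTG) was found among the members in the second Il1rl1 window alone, against 38.6% of all windows. The D-box that NFIL3 binds (TTACGTAA or TTATGTAA) was in none of the 9 windows and in 0.932% of all. These matches describe the letters of the windows and were not tested for binding.

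Gata3 and Nfil3, the transcription factor genes, were higher in N275D than in WT libraries, by 1.505-fold and 1.27-fold. No effector gene was called higher with them. Il1rl1 was called lower at 0.719 of the WT level, Il13 lay at 0.895 of the WT level without passing the test, and Il4, Il5 and Ptgdr2 were close to the detection limit in both genotypes.

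Gata3 (chromosome 2, 9857078 to 9887953, minus strand, GRCm38), the lineage factor, had 146, 118 and 123 normalized reads in WT libraries 1 to 3 and 213, 185 and 186 in the N275D libraries. The lowest N275D library lay above the highest WT library. The means were 129 ± 15.2 and 194 ± 15.9 (SD, n = 3 each). The log2 fold change was 0.59 with a standard error of 0.10 and a 95% interval of 0.37 to 0.81 (limma, adjusted p = 0.000193). Throughout, fold changes are on the scale of log2(normalized reads + 1), N275D minus WT, and adjusted p-values are Benjamini-Hochberg values over the 11908 genes whose mean reached 10. Calls, at a threshold of 0.05 on the adjusted p, covered 50.9% of these genes, 24.7% higher and 26.1% lower, and 57.7% had groups that did not overlap. The 3 calls among the 4 members tested, 2 higher and 1 lower, and their 4 of 4 non-overlapping groups stand against that background, and so few genes allow no reading of the share. Of the genes tested 3.59% were called with at least a 2-fold change, and none of the members was. Gata3 overlaps 3 annotated genes, 2 of them on the other strand, none of which was analysed here, and the counting setting for strand is not given in the sources used here.

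Nfil3 (chromosome 13, 52967209 to 52982878, minus strand) was measured at 951, 983 and 962 normalized reads in WT and at 1227, 1229 and 1225 in N275D libraries. Libraries of each genotype lay close together and the groups did not overlap. Within each genotype the spread was smaller than counting error alone would give at these levels, so the gap is not judged against it. The mean rose from 965 ± 16.1 to 1227 ± 2.17, a log2 fold change of 0.35 with a standard error of 0.05 and a 95% interval of 0.25 to 0.44 (limma, adjusted p = 1.09e-05). Nfil3 was the second most abundant member per kilobase of exon.

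Il13 (chromosome 11, 53631323 to 53634702, minus strand) encodes the Th2 cytokine that acts on epithelium, mucus production and smooth muscle. Its values were 833, 776 and 964 normalized reads in WT and 774, 758 and 760 in N275D libraries. All N275D libraries lay below all WT libraries, but WT library 2 lay close to N275D library 1, and WT library 3 stood above the rest. The means of 857 ± 96.3 and 764 ± 8.29 differed by a log2 fold change of -0.16 with a standard error of 0.07, which did not pass the test (limma, adjusted p = 0.0570). Its 95% interval, unadjusted for the number of genes, ran from -0.30 to -0.02. Without WT library 3 the log2 fold change was -0.07 (adjusted p = 0.247), and without WT library 2 it was -0.23 and passed (adjusted p = 0.00892), so single WT libraries decided the call.

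Il4 (chromosome 11, 53612460 to 53618665, minus strand), the cytokine that induces the Th2 fate, was represented by 1, 1 and 0 whole reads in WT libraries 1 to 3 and by 0, 0 and 1 in N275D libraries. These 2 and 1 reads came from 54351900 and 53263358 reads on genes. Both genotypes lay under a floor of 3 reads, so no fold is given. Il4 RNA was at the limit of detection in cells whose Il13 RNA reached 769 to 981 reads in WT libraries.

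Il5 (chromosome 11, 53720794 to 53725103, plus strand), the growth factor of eosinophils, had 1, 5 and 7 reads in WT libraries 1 to 3 and 1, 0 and 3 in N275D libraries. The groups overlapped. Pooled by genotype there were 13 WT reads, with an exact 95% Poisson interval of 6.92 to 22.2, and 4 N275D reads, with an interval of 1.09 to 10.2. The ratio of N275D to WT was 0.314 with an exact interval of 0.0746 to 1.02, which includes 1. Since the reads were pooled, these intervals cover counting error only and leave out the spread between libraries. No molecular identifiers were given for the reads. In the fit with no minimum on the mean, the difference did not pass the test (limma, adjusted p = 0.149).

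Il1rl1 (chromosome 1, 40404864 to 40465418, plus strand), the IL-33 receptor gene, had 45.4, 55.5 and 42.2 normalized reads in WT and 30.9, 34.1 and 36.5 in N275D libraries. The groups did not overlap, with N275D lower. The mean fell from 47.7 ± 6.91 to 33.9 ± 2.80, a log2 fold change of -0.48 with a standard error of 0.17 and a 95% interval of -0.84 to -0.11 (limma, adjusted p = 0.0299). The call was close to the threshold. It was lost with WT library 2 left out (log2 fold change -0.36, adjusted p = 0.139), with WT library 1 left out (-0.51, 0.0505), with N275D library 1 left out (-0.41, 0.0964) or library 2 left out (-0.48, 0.0604), and in DESeq2 on whole reads (adjusted p = 0.137).

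Ptgdr2 (chromosome 19, 10924519 to 10942511, plus strand), a receptor used to identify Th2 cells and eosinophils, gave 1 read in WT library 1 and 0 reads in the other 5 libraries. A count of 0 in the N275D libraries allows up to 3 of their 53263358 reads on genes. A difference was not detectable at this depth. Its gene overlaps Ccdc86 on the other strand, which was measured at 1208 ± 35.2 normalized reads in WT libraries and 783 ± 23.1 in N275D libraries.

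**Figure D1:**
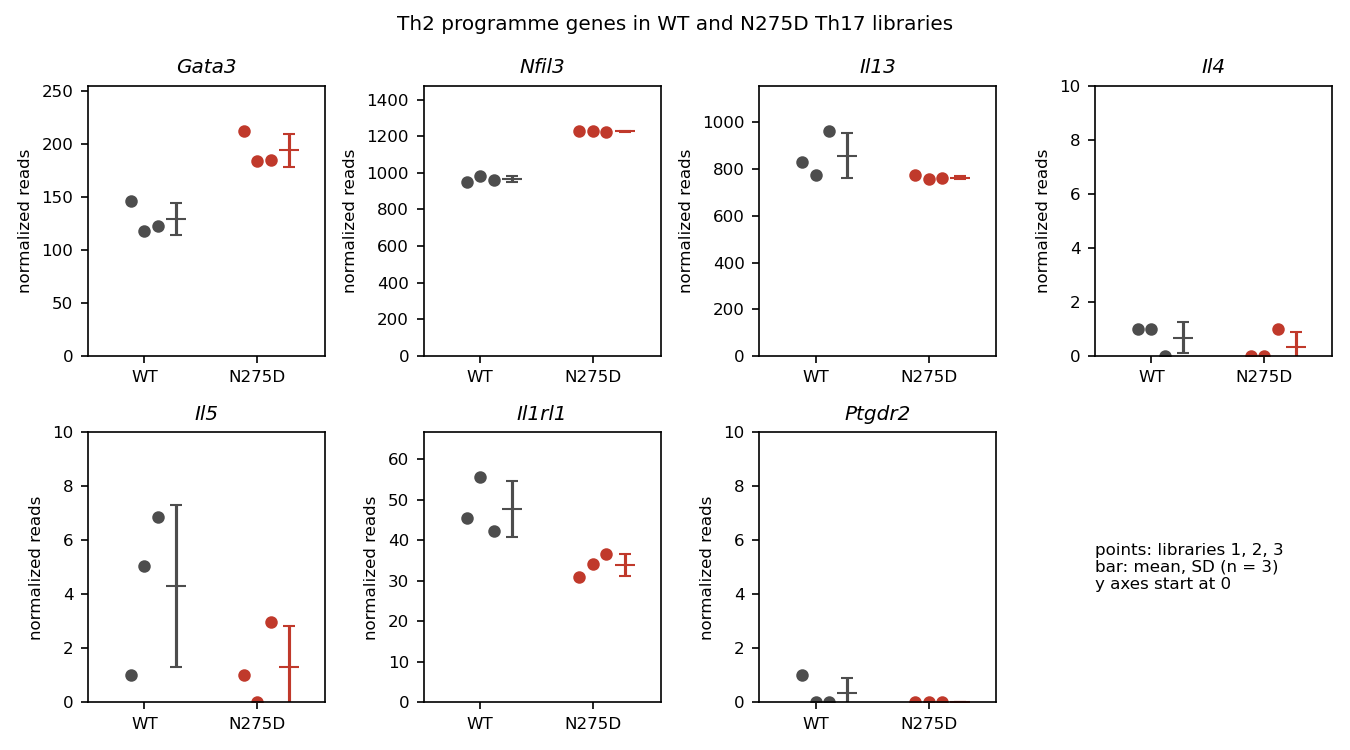
Normalized reads of the 7 members (y axis, from 0 in each panel) in WT (grey) and N275D (red) libraries, with points for libraries 1 to 3 and bars for the mean and SD (n = 3). Gata3 and Nfil3 stand higher in all 3 N275D libraries, Il13 and Il1rl1 lower, and Il4, Il5 and Ptgdr2 stay at 6.88 normalized reads or fewer.

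To compare members with each other, normalized reads were divided by the exon length of each gene in kilobases. On that scale the means over the 6 libraries were 673 for Il13, 541 for Nfil3, 40.6 for Gata3, 5.92 for Il1rl1, 1.83 for Il5, 0.408 for Il4 and 0.0636 for Ptgdr2. Among the 15648 genes with an exon length they ranked 1365, 1770, 8605, 10892, 12029, 13469 and 15082. Within each genotype the libraries of Il13, Nfil3, Gata3, Il1rl1 and Il5 did not overlap between neighbours in this order, whereas Il5 and Il4 overlapped and Il4 and Ptgdr2 overlapped. The range of Il13 per kilobase was 644 to 799.7 in WT and 629 to 642 in N275D libraries, against 469 to 485 and 604 to 607 for Nfil3. Il17a, the defining Th17 cytokine gene, stood at 25469 per kilobase and ranked 12, Tbx21 (T-bet, the Th1 factor) at 177, Ifng at 93.6 and Foxp3 (the regulatory T cell factor) at 9.74. Gata3 thus ranked below Tbx21 and above Foxp3 per kilobase, and Il13 ranked above Ifng.

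**Figure D2:**
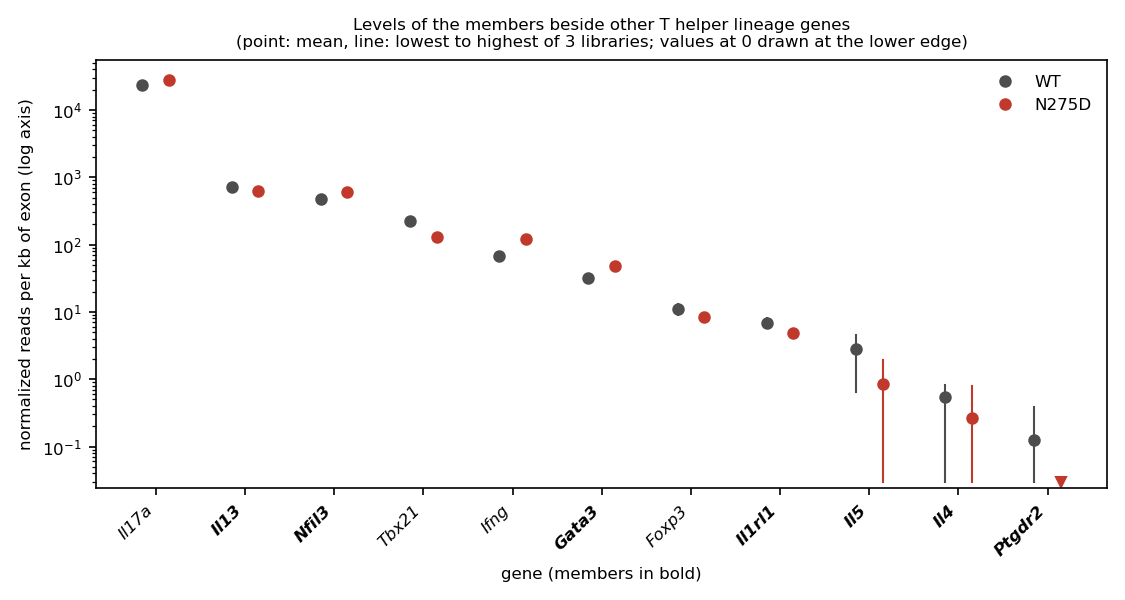
Normalized reads per kilobase of exon (log axis) of the 7 members (bold) and 4 reference genes, with the mean as a point and the lowest to highest of 3 libraries as a line for WT (grey) and N275D (red). Levels span from Il17a at 25469 to Ptgdr2 at 0.0636, with Il13 and Nfil3 above Tbx21 and with Il5, Il4 and Ptgdr2 at the lower end.

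Ratios within a library do not depend on scaling between libraries. The log2 ratio of Gata3 to Tbx21 was -1.93, -2.25 and -2.23 in WT libraries 1 to 3 and -0.67, -0.81 and -0.65 in N275D libraries. The N275D libraries all lay higher, by 1.43 on the log2 scale, or 2.69-fold. Tbx21 itself fell by 0.83 on the log2 scale (adjusted p = 5.20e-08, limma). The log2 ratio of Gata3 to Foxp3 was higher in N275D by 1.00, again with no overlap between genotypes. Foxp3 was at 50.9 ± 9.29 in WT and 38.2 ± 4.998 in N275D libraries and did not pass the test (log2 fold change -0.40, limma, adjusted p = 0.0755), though it passed after quantile normalization (-0.57, adjusted p = 0.0164) and without WT library 2 (-0.54, adjusted p = 0.0285). Each of the 2 ratios had an exact two-sided permutation p of 0.1, the smallest that 3 against 3 libraries can give, and 0.1 after adjustment over the 2. Ifng rose by 0.81 and Il17a by 0.23 on the log2 scale (limma, adjusted p = 3.54e-05 and 1.56e-05).

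Of 18 regulators known to promote the Th2 fate, Gata3 and Nfil3 included, 11 were called higher, 4 lower and 3 did not pass the test. Of all genes tested, 24.7% were called higher and 26.1% lower. This list and those below were chosen with earlier results of these data known, so their counts allow no reading against these shares. The median log2 fold change of the regulators was 0.13, beside -0.0026 over all genes tested. Bhlhe41, a transcriptional repressor induced during Th2 differentiation, rose from 10.6 ± 2.88 to 27.2 ± 4.99 normalized reads, a log2 fold change of 1.29 with a standard error of 0.27 (limma, adjusted p = 0.000884), or 0.85 with a pseudocount of 10. Maf, an activator of Il4 that Th17 cells also use, rose from 177 ± 5.61 to 253 ± 14.2 (log2 fold change 0.52). Junb and Batf, AP-1 family partners of both Th2 and Th17 programmes, fell by 0.55 and 0.51 on the log2 scale, and the receptor gene Notch1 fell by 0.43. Stat6, the transducer of the IL-4 signal, was at 4836 ± 91.8 in WT and 4673 ± 59.0 in N275D libraries and did not pass (log2 fold change -0.05, limma, adjusted p = 0.257). Stat6, and Il4ra and Rad50 below, were chosen for naming after their values were seen.

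Of 11 regulators that restrain the Th2 fate, 1 was called higher, 4 lower and 6 did not pass, against the same shares of 24.7% and 26.1%, with a median log2 fold change of -0.06. Tbx21, which antagonizes GATA3, had the lowest fold change, from 565 ± 10.2 to 318 ± 23.0 normalized reads. Zfpm1, whose product FOG-1 binds GATA3 and represses its activity, fell from 1808 ± 35.3 to 1166 ± 76.8 (log2 fold change -0.63, limma, adjusted p = 4.63e-08). Lef1, which represses Th2 cytokine genes, fell by 0.43 on the log2 scale. Socs1, an inhibitor of cytokine signalling, rose from 689 ± 25.5 to 898 ± 68.2 (log2 fold change 0.38).

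Of 10 cytokine genes linked to Th2 cells, 7 had a mean of at least 10 and were tested, with 3 higher, 3 lower, and Il13 not passing, beside the same background. Their median log2 fold change was -0.16. Il24, an IL-10 family cytokine that Th2 cells can make, rose from 719 ± 50.2 to 2014 ± 80.4 normalized reads, a log2 fold change of 1.49 with a standard error of 0.06 (limma, adjusted p = 5.35e-12). Il10, which restrains inflammation, rose from 46.3 ± 11.3 to 75.1 ± 5.11, and Il3, a growth factor of mast cells and basophils, rose from 293 ± 39.5 to 387 ± 24.7. Csf2, the gene of GM-CSF, fell from 543 ± 14.5 to 349 ± 12.8, Areg, an epidermal growth factor receptor ligand, from 116 ± 4.45 to 85.7 ± 10.8, and Il9, a mast cell growth factor, from 725 ± 26.8 to 596 ± 22.7. Il31, a cytokine of itch, was near 0 with 4 reads in WT and 2 in N275D libraries in all. As background, Csf2, Il9, Il10 and Il24 are also made by Th17 cells.

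Of 16 receptor genes, Il1rl1 and Ptgdr2 included, 14 were tested, 9 were called higher, 3 lower and 2 did not pass, with a median log2 fold change of 0.30. Of all genes tested, 24.7% were higher and 26.1% lower, and with 1 library left out the receptors called fell from 12 to between 8 and 10. Il7r, the receptor for a T cell survival cytokine, rose from 592 ± 31.8 to 1502 ± 65.4 (log2 fold change 1.34, limma, adjusted p = 1.49e-11). Il9r rose from 30.7 ± 6.39 to 65.1 ± 12.4, and Ccr3, the eotaxin receptor gene of eosinophils and some Th2 cells, from 49.3 ± 4.96 to 84.0 ± 3.59. Il4ra, the receptor chain for IL-4 and IL-13, rose from 6142 ± 99.0 to 7900.4 ± 73.0 (log2 fold change 0.36, limma, adjusted p = 2.29e-07). Il1rl1 was 1 of the 3 lower genes. Il1rap, the shared IL-1 family co-receptor that ST2 needs, fell from 374 ± 35.4 to 280 ± 11.9 (log2 fold change -0.41, limma, adjusted p = 0.000343). Il2rg, the common gamma chain, fell by 0.22 on the log2 scale. Il17rb, the IL-25 receptor gene, was near 0, with 0 reads in WT and 2 in N275D libraries.

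NFIL3 shares its DNA site with the clock activators DBP, TEF and HLF and is itself repressed by the REV-ERB receptors of Nr1d1 and Nr1d2. Of these 5 genes 4 were tested, 2 were higher, 1 lower and 1 did not pass. Over all genes tested, 24.7% were called higher and 26.1% lower, and 4 genes allow no reading against these shares. Tef rose from 269 ± 10.4 to 366 ± 16.3 (log2 fold change 0.44) and Nr1d2 from 162 ± 15.8 to 226 ± 13.1 (0.48). Nr1d1 was called lower, from 69.9 ± 9.03 to 53.5 ± 4.43 (log2 fold change -0.38, limma, adjusted p = 0.0404). That call was lost in 7 of 15 alternative analyses, namely DESeq2 (adjusted p = 0.158), the replicate block, no minimum on the mean, and leaving out WT library 2 or 3 or N275D library 1 or 3. Hlf was under the minimum mean, at 9.98 ± 2.55 in WT and 3.64 ± 2.84 in N275D libraries.

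**Figure D3:**
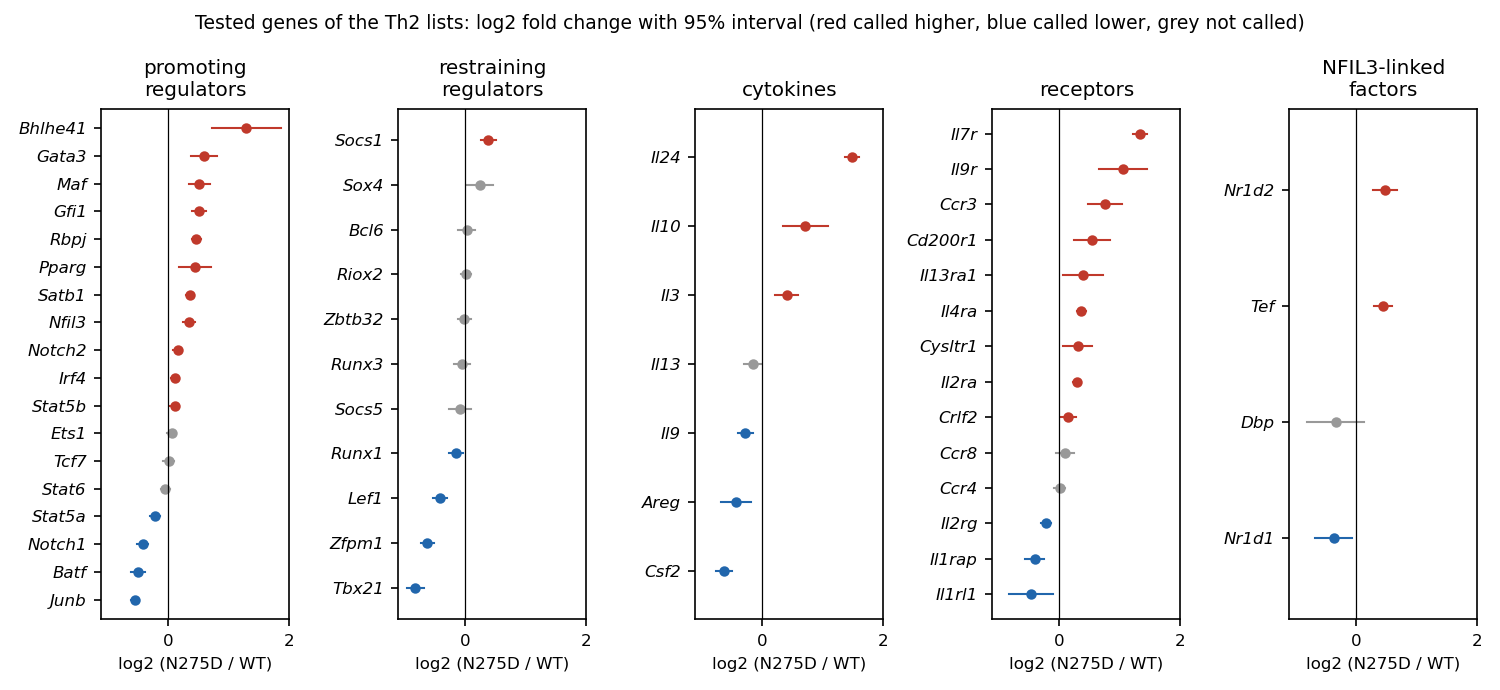
Log2 fold change (x axis, N275D over WT, limma) with 95% interval of each tested gene in the 5 Th2-related lists, coloured by call. Members of a list move in both directions. The regulators that promote the Th2 fate include 11 higher and 4 lower genes, and the regulators that restrain it include 1 higher and 4 lower. The lists were chosen with earlier results of these data known, so these counts are descriptive.

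The 3 cytokine members lie together, Il4 12.7 kb from Il13 and Il5 86.1 kb from it on the other side, with the DNA repair gene Rad50 between Il13 and Il5. Rad50 was measured at 1395 ± 111 normalized reads in WT and 1395 ± 49.8 in N275D libraries (log2 fold change 0.00, limma, adjusted p = 0.976). Per kilobase of exon, Il13 stood at 711.5 in WT and 634 in N275D libraries, Rad50 at 259.6 in each, Il5 at 2.80 and 0.859, and Il4 at 0.548 and 0.268. Within 250 kb of Il13 were 8 tested genes, too few for a reading against the 24.7% higher and 26.1% lower of all genes tested. Of them, 3 were called higher and none lower. These were Kif3a, a kinesin motor gene on the far side of Il4 (log2 fold change 0.28), and, farther out, Aff4, an elongation complex gene (0.37), and Uqcrq, a respiratory chain gene (0.16), whose groups overlapped and whose call was lost in 4 of 16 alternative analyses.

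**Figure D4:**
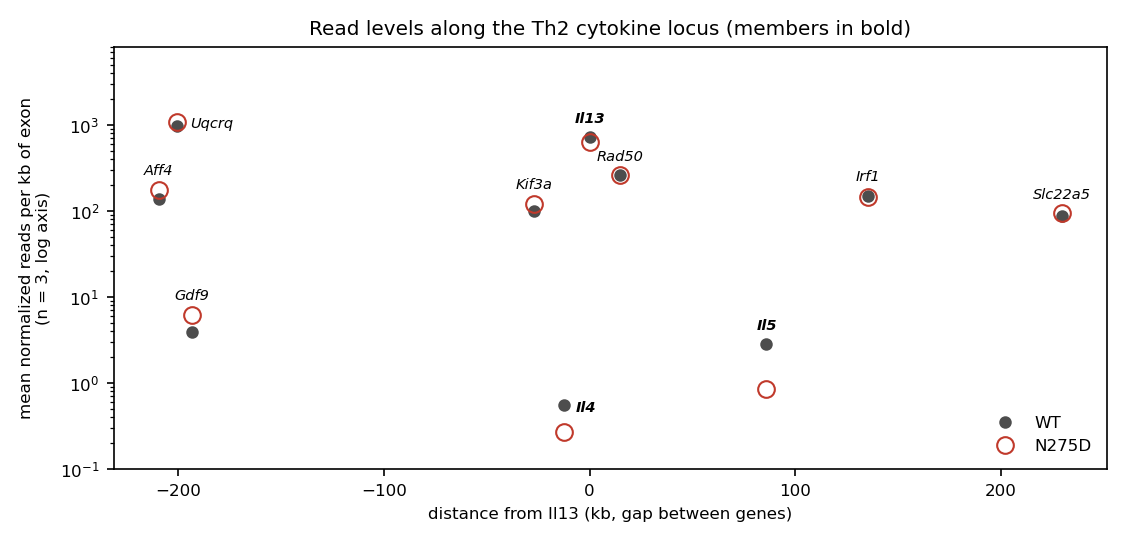
Mean normalized reads per kilobase of exon (log axis, n = 3) of the genes within 250 kb of Il13 against their distance from Il13 in kilobases, for WT (filled grey) and N275D (open red). Il13 stands at 711.5 and 634, while Il4 and Il5 lie at 2.80 or lower. Septin8, which had no exon length under that name, is not drawn.

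The nearest measured neighbour of Gata3, Taf3, which encodes a subunit of the general factor TFIID, fell by 0.36 on the log2 scale (limma, adjusted p = 0.000113). Atp5c1, of ATP synthase, fell by 0.15, but stood at -0.0935 after quantile normalization, where it did not pass (adjusted p = 0.0536). Kin, a DNA-binding protein gene, was called higher by 0.15, a call close to the threshold (limma, adjusted p = 0.0476) that was lost in 9 of 16 alternative analyses. At Il1rl1, 4 neighbours were tested, too few for a reading against the 26.1% of all genes tested that were called lower. Of them, 3 were called lower, as Il1rl1 was, though its own call was close to the threshold. They were the IL-18 receptor genes Il18r1, which adjoins Il1rl1 (log2 fold change -0.25, limma, adjusted p = 0.00301), and Il18rap (-0.15, adjusted p = 0.0355), and the IL-36 receptor gene Il1rl2 (-0.18, adjusted p = 0.0104). The Il18rap call was lost in 7 of 16 such analyses and that of Il1rl2 in 1. Near Ptgdr2, 2 of 8 tested genes were called higher and 5 lower, against 24.7% and 26.1% of all genes tested. So few genes allow no reading of these shares. Among the genes called were the overlapping Ccdc86, a nucleolar protein gene (-0.63), the splicing factor gene Prpf19 (-0.37) and the transporter gene Slc15a3 (0.34). The single tested neighbour of Nfil3, Auh, of leucine catabolism, rose from 315 ± 19.8 to 461 ± 11.99 (log2 fold change 0.55, limma, adjusted p = 5.62e-06).

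The genes whose log2 values followed Gata3 most closely over the 6 libraries were Zc3h6 (Pearson r = 0.995), Zfp605 (0.993) and Zfp697 (0.992). These 6 points fall into the 2 genotypes, and the correlations describe them without a test.

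The 6 libraries held 17659035 to 18510878 reads on genes. Within a genotype, libraries differed by 1.32 to 3.05 times the counting noise, and WT library 3 was the farthest from its group. In bulk RNA, fewer cells of a type and less RNA per cell cannot be told apart. Markers of other cells that express Th2 genes were measured beside the members. Of 10 mast cell, basophil and eosinophil markers, 8 had a mean under 10 and were not tested, and their summed level was 29.5 to 43.4 normalized reads in WT and 78.9 to 95.3 in N275D libraries. Most of that sum was Kit, the stem cell factor receptor gene, at 30.4 ± 9.67 and 45.9 ± 12.7, whose groups overlapped and which was not called (limma, adjusted p = 0.0548). Mcpt8, a basophil protease gene, was at 2.33 ± 1.14 in WT and 18.6 ± 3.32 in N275D libraries, and it reached the minimum mean only through the N275D libraries. The protease genes Prss34 and Cpa3 and the granule gene Prg2 also had groups that did not overlap, with means of 1.66 and 9.97, 0.982 and 6.28, and 0.327 and 1.66. The groups overlapped for the IgE receptor genes Fcer1a and Ms4a2 (0.336 and 1.33 for each), Epx (0 and 1.32), Mcpt4 (0 and 0.666) and Tpsb2 (0.336 and 0). The deposited table held no gene at 0 in all 6 libraries, so a marker without reads in every library could not appear in it. The sum of 6 B cell markers was 1117 to 1155 in WT and 1687 to 1754 in N275D libraries, of which Ebf1 made up 986 ± 16.1 and 1479 ± 62.3. Of the 5 T cell markers 3 were called lower and none higher, of the 5 Th1 markers 3 higher and 1 lower, and of the 4 regulatory T cell markers 1 higher. The CD8 and NK cell markers had 2 of 3 tested genes higher, and Ncr1 of that list was not in the table. Of the 3 gamma delta T cell markers, Trdc was not in the table, and the other 2, Sox13 and Blk, were higher. The myeloid markers had 1 higher and 1 lower of 2 tested. Over all genes tested, 24.7% were called higher and 26.1% lower, and 57.7% had groups that did not overlap. So few markers per cell type allow no reading against these shares. The part of these cell types in the changes of the members was not tested.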

How the data were processed

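RNA-seq was read in 3 WT and 3 N275D libraries, grouped by the genotype in their labels, which name a directional kit with poly-A selection. According to the methods, the authors used STAR for alignment to mm10, featureCounts for counting and DESeq2 for testing. Each library's deposited signal equals the authors' read numbers times a single scaling factor, which left every value a whole multiple of it within 1e-06 and gave back the whole reads. The deposited table also holds the authors' log2 fold changes, q-values and group averages (scores), which were not used. The fit used limma 3.58.1 (R 4.3.3; trended prior with 12.1 degrees of freedom) on log2(normalized reads + 1) of the 11908 genes whose mean reached 10, and a call needed an adjusted p below 0.05. Members under that mean were given as whole reads, with exact intervals for Il5 and a floor of 3 reads. The smallest p of an exact permutation test with 3 against 3 libraries is 0.1. Depth was 17659035 to 18510878 reads on genes per library.

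Alternatives were other pseudocounts, minimums and scalings, no trend, a replicate block, edgeR 4.0.16 and DESeq2 1.42.0 on the whole reads, and each library left out. Same-numbered libraries did not deviate together, so the fit has no block. On simulated data, 191 of 198 genes changed 2-fold were called at 11848 genes, with 10 unchanged genes called. The simulation changed few genes, all by 2-fold, and gave every gene and library the same spread beyond counting error. It therefore did not cover smaller changes such as those of the members, nor a library farther from its group. Exon lengths, strands and overlapping genes are from GENCODE M21 (GRCm38), and gene positions are from RefSeq (GRCm38.p6). RefSeq positions were matched for 16135 of 16244 genes.

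The members and lists were chosen with earlier results of these data known. Named were all members, the called genes with the 3 largest fold changes in each direction of each list, 4 reference genes, up to 3 called genes within 250 kb of each member, the 3 genes most correlated with Gata3, and listed genes near 0. The exceptions are stated where they occur. Results that need 1 further reference gene are not reported here.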

Additional observations from a re-analysis of the deposited data

How the results depend on the processing

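Gata3 and Nfil3 kept their direction and their call in every alternative run. Leaving out each library in turn gave log2 fold changes of 0.52 to 0.68 for Gata3, 0.34 to 0.36 for Nfil3, -0.23 to -0.07 for Il13 and -0.56 to -0.36 for Il1rl1. Il13 passed only without WT library 2 (-0.229), and the value nearest 0, -0.0727, came without WT library 3. Il1rl1 lost its call without WT library 1 (-0.51) or 2 (-0.36), without N275D library 1 (-0.41) or 2 (-0.48), with no minimum on the mean (-0.48, adjusted p = 0.0601) and in DESeq2 (-0.49), and the cause was not tested. At a minimum mean of 100 it was not among the genes tested. Il4, Il5 and Ptgdr2 are reported as reads. With no minimum on the mean none of them passed in limma, edgeR or DESeq2, with adjusted p for Il5 of 0.149, 0.167 and 0.346.

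Genes called with at least a 2-fold change numbered 427, against 259 with a pseudocount of 10, 703 with no minimum on the mean and 162 with a minimum of 100, and 413 to 456 with a library left out. Genes called at any fold change numbered 6056, and 5158 to 6398 with a library left out. Receptors called numbered 12, against 7 with a minimum of 100, where fewer were tested, and 8 to 10 with a library left out. Leaving out libraries gave 13 to 15 promoting regulators, 4 to 5 restraining regulators, 6 to 7 cytokines and 2 to 3 NFIL3-linked factors called, and log2 ratios of 1.37 to 1.53 (Gata3 to Tbx21) and 0.84 to 1.11 (to Foxp3). Among the named genes 2, neither of them called, changed sign. Stat6 was at 0.0472 after quantile normalization, and Rad50 ranged from -0.0656 without WT library 3 to 0.0404 without WT library 2, with -0.0241 without N275D library 3.

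The deviations of same-numbered libraries correlated at -0.05, 0.04 and -0.08, so no shared deviation was seen. Whether same-numbered libraries were cultured or prepared together is not given in the labels. With the replicate block 5727 genes were called, 428 of them at least 2-fold, and Gata3 kept an adjusted p of 5.46e-05, Nfil3 3.55e-05, Il13 0.0521 and Il1rl1 0.0400. At this depth differences in Il4 and Ptgdr2 were not detectable.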
